A study of Homo sapiens with 12 samples.

Results

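PAEP encodes glycodelin. Among the genes tested, it had the largest rise of log2(FPKM + 1) under vincristine (VCR), both in control cells and in PTPN21-overexpressing cells. The cells come from a study of PTPN21, a phosphatase, in leukemia. Both kinds of cells are labelled as derived from 1 line, Jurkat. It is 1 of the 60671 genes in the deposited table and 1 of the 11591 genes tested, whose FPKM averaged at least 1 over all libraries. FPKM are fragment numbers divided by gene length and by the fragments of the whole library. PAEP was chosen by its change of FPKM with drug in both kinds of cells, so those changes are given as a description and without a test. The comparisons of the PTPN21 construct with its control were not used in that choice and were tested. The difference between the drug responses of the 2 kinds of cells was tested as well. It is made of the 2 changes used in the choice, so its test is not independent of that choice.

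RNA from cells labelled Jurkat, a line derived from a T cell acute lymphoblastic leukemia, was analysed as 12 libraries, 3 in each of 4 groups. Control cells (NC), which the labels call WT and the methods describe as carrying the GFP vector pHIV7-SFFV-GFP, and cells overexpressing PTPN21 were each kept for 48 h with VCR or with DMSO, its solvent, giving NC+DMSO, NC+VCR, PTPN21+DMSO and PTPN21+VCR. VCR is a vinca alkaloid that binds tubulin and blocks the assembly of microtubules. Neither the VCR dose of these libraries, the number of clones nor the separateness of the cultures is given in the labels, so p-values measure the spread between these libraries, which may be technical.

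Glycodelin is a small secreted glycoprotein of the lipocalin family, whose members fold into a barrel that can hold a hydrophobic ligand. It is best known from the secretory endometrium and the decidua, where progesterone raises it, and from amniotic fluid and seminal plasma. Its forms differ in the glycans on the protein, and the glycans decide much of its activity. The amniotic form restrains T cell activation and has been described to act through CD45, and the gene is also known from melanoma, ovarian and lung tumours.

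PAEP (ENSG00000122133) lies on the plus strand of chromosome 9 from 135561756 to 135566955 in GRCh38, with 9 transcripts in GENCODE release 29, of which 8 are annotated as protein coding. The transcript ENST00000277508 has 7 exons and 821 bases. The 250 bases before the annotated start (RefSeq, GRCh38.p14, chr9:135561506-135561755, plus strand) are shown because the motif matches described further on lie in them. They are written 5′ to 3′, with an AP-1 site and an SP1 box in capitals.

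PAEP upstream: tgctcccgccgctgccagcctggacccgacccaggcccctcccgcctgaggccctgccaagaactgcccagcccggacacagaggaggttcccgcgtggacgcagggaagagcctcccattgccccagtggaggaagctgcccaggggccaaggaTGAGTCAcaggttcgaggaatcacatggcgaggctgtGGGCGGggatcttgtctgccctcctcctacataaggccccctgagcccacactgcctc

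The labels were checked before the results. PTPN21 was between 4.34 and 10.5 FPKM in the 6 libraries of the PTPN21 groups and at most 0.569 FPKM in the 6 NC libraries, so every library matched its construct. The T cell label was not matched in the same way. Of 14 T cell markers, CD5, CD28, LCK and CD247 were listed at 0 in all 12 libraries, and 10 stayed under 1 FPKM throughout. CD3E, a chain of the T cell receptor complex, reached at most 0.146 FPKM and CD2 at most 0.029 FPKM, whereas CD3D, another chain, was between 61.8 and 140 FPKM and made up most of the summed level of the list (64.6 to 146 FPKM). Of 9 B lineage markers, 8 stayed under 1 FPKM. The 5 melanocyte markers all stayed under 1 FPKM, and 5 myeloid markers summed to 10.1 to 20.4 FPKM. A list of 15 erythroid genes was written after the values were seen, so its levels are a description. All 15 averaged at least 1 FPKM over the libraries. EPOR was nevertheless at most 0.526 FPKM with VCR and listed at 0 in 1 NC+VCR library. The summed level of the list was 1765 to 2533 FPKM in NC+DMSO and 3516 to 4754 FPKM in PTPN21+DMSO. With drug these genes summed to 1030 to 1078 FPKM in NC+VCR and 1272 to 1445 FPKM in PTPN21+VCR. The fetal globin gene HBG2 was highest among them, with up to 2985 FPKM. Among 7 epithelial markers, the keratins KRT8, KRT18 and KRT19 and the adhesion molecule EPCAM were high in every library, while KRT7 was listed at 0 in 11 of the 12, CLDN4 reached at most 0.306 FPKM and CDH1, E-cadherin, at most 1.83 FPKM. The cells are called by their labels here, and no other cell type is assigned to them.

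**Figure D1:**
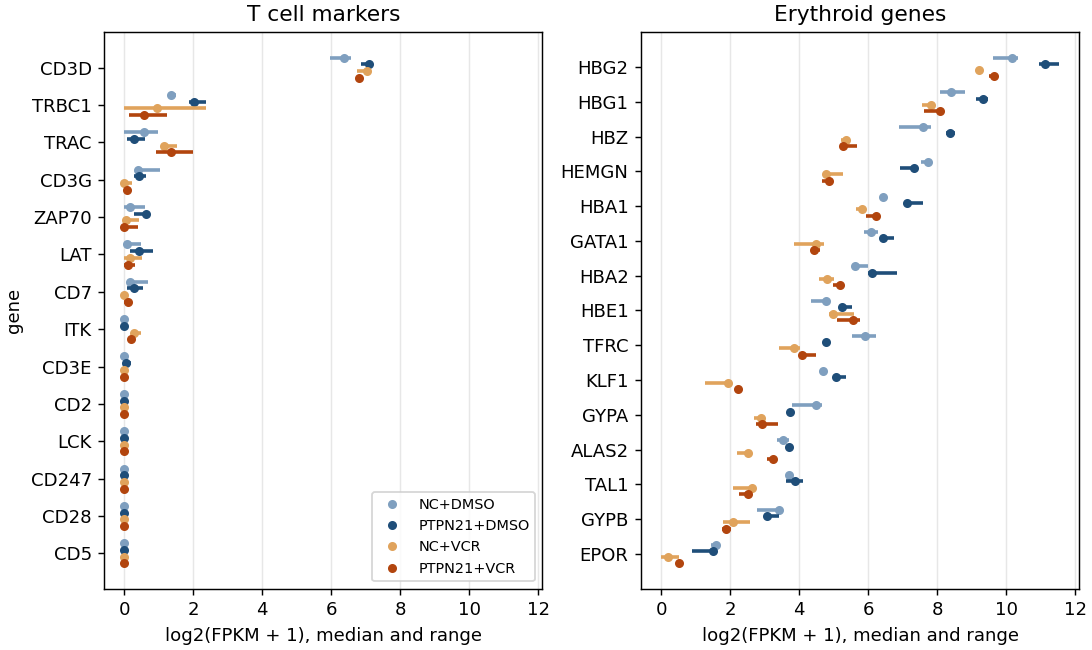
Levels of 14 T cell markers (left) and 15 erythroid genes (right) on the log2(FPKM + 1) scale, with points at the median and lines over the range of the 3 libraries of each group. Apart from CD3D, the T cell markers lay at or near 0, with TRBC1 (at most 4.15 FPKM) and TRAC (at most 3.01 FPKM) the next highest, while HBG2 reached 2985 FPKM.

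PAEP was close to the floor without drug. In NC+DMSO it was 0.431, 1.77 and 0.410 FPKM, and in PTPN21+DMSO it was 1.49, 1.42 and 0.537 FPKM. With drug it was 139, 139 and 156 FPKM in NC+VCR, and 128, 105 and 117 FPKM in PTPN21+VCR. All 6 VCR libraries lay far above all 6 DMSO libraries, while the 2 DMSO groups overlapped. Groups that merely do not overlap, with VCR higher by any amount, were found for 10.2% of all genes tested in NC cells and for 17% in PTPN21 cells. Each NC+VCR library was higher than each PTPN21+VCR library.

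**Figure D2:**
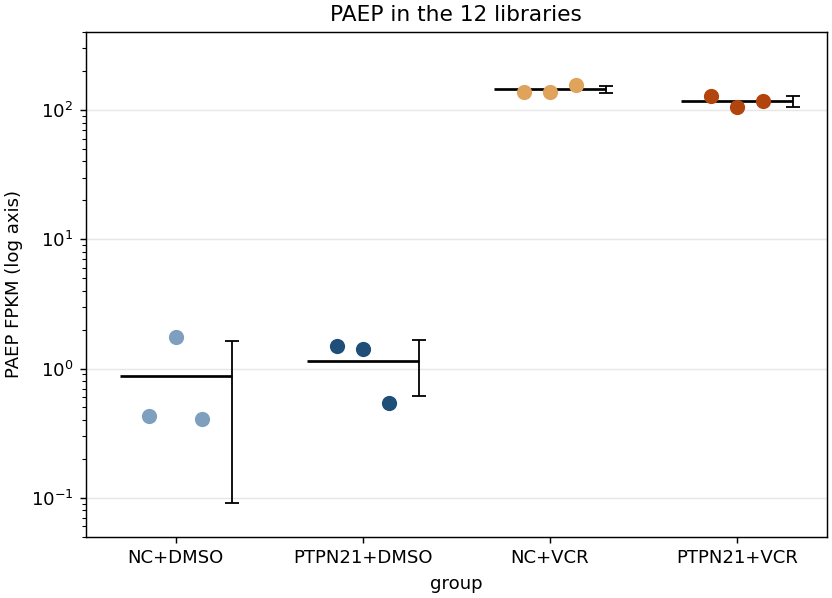
PAEP FPKM (log axis) in the 12 libraries by group, with each library as a point, the group mean as a horizontal line and the SD (n = 3) as an error bar. The 6 DMSO libraries lie between 0.410 and 1.77 FPKM and the 6 VCR libraries between 105 and 156 FPKM.

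Group means were 0.870 ± 0.778 FPKM (SD, n = 3) in NC+DMSO and 1.15 ± 0.530 FPKM (SD, n = 3) in PTPN21+DMSO. With VCR they were 144.6 ± 10.1 FPKM (SD, n = 3) in NC and 116.9 ± 11.9 FPKM (SD, n = 3) in PTPN21 cells. The spread relative to the mean was therefore large without drug (89.5% and 46.2%) and small with it (6.96% and 10.1%). The ratio of mean FPKM was 166 in NC cells, and single VCR to DMSO library pairs gave 78.4 to 381. In PTPN21 cells the ratio of means was 102, with 70.5 to 239 over pairs. The low values without drug set the width of these ranges.

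The table gives no depth, and an estimate from the steps in which low values of single-exon genes fell gave 14500000 to 16400000 fragments in NC+DMSO, 22700000 to 24100000 in PTPN21+DMSO, 16900000 to 18000000 in NC+VCR and 20700000 to 22400000 in PTPN21+VCR. At these depths PAEP would rest on about 4.89 to 28.4 fragments per DMSO library and 1916 to 2251 fragments per VCR library, counted for the transcript of 821 bases. The differences between single DMSO libraries thus rest on few fragments. By this estimate the PTPN21 libraries all had more fragments than any NC library, so depth and construct cannot be told apart.

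Ranked by FPKM among all genes, PAEP moved from below the middle of the genes with any signal to the upper end. It held ranks 10025 to 14823 in NC+DMSO and 10183 to 13131 in PTPN21+DMSO. In NC+VCR it held ranks 485 to 537 and in PTPN21+VCR ranks 580 to 723. In the VCR libraries 96.2% to 97.3% of the genes above 0 were at or below its level.

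On the log2(FPKM + 1) scale, which understates the change of low genes, PAEP was higher by 6.36 (standard error 0.261) in NC+VCR than in NC+DMSO and by 5.81 (standard error 0.261) in PTPN21+VCR than in PTPN21+DMSO. It ranked 1 by rise in both comparisons among 11591 genes. By the size of change in either direction it ranked 1 in PTPN21 cells and 2 in NC cells, after AC010761.1, a gene whose log2 change was -7.46 there. The median gene changed by -0.36 in NC and -0.17 in PTPN21 cells with VCR. With median ratio scaling, which brought those medians to -0.03 and -0.02, the changes of PAEP were 6.57 and 5.95, and it still ranked 1 by the smaller of its changes.

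On the log2(FPKM + 1) scale the distance to the next genes was wide. The added 1 holds down the rise of genes that start near 0. CPA4, described below, had at most 0.0216 FPKM without drug and at least 4.67 FPKM with it. A log2 rise of at least 1 in both NC and PTPN21 cells was found for 222 genes, of at least 2 for 52, of at least 3 for 13, of at least 4 for 2 and of at least 5 for 1, PAEP itself. Ordered by the smaller of the 2 rises, AC108134.2 followed with 4.34. Its level was 0.487 to 1.09 FPKM in NC+DMSO and 33.6 to 34.8 FPKM in NC+VCR, and 0.229 to 0.869 FPKM in PTPN21+DMSO and 26.5 to 41.0 FPKM in PTPN21+VCR. It started as low as PAEP and ended well below it.

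**Figure D3:**
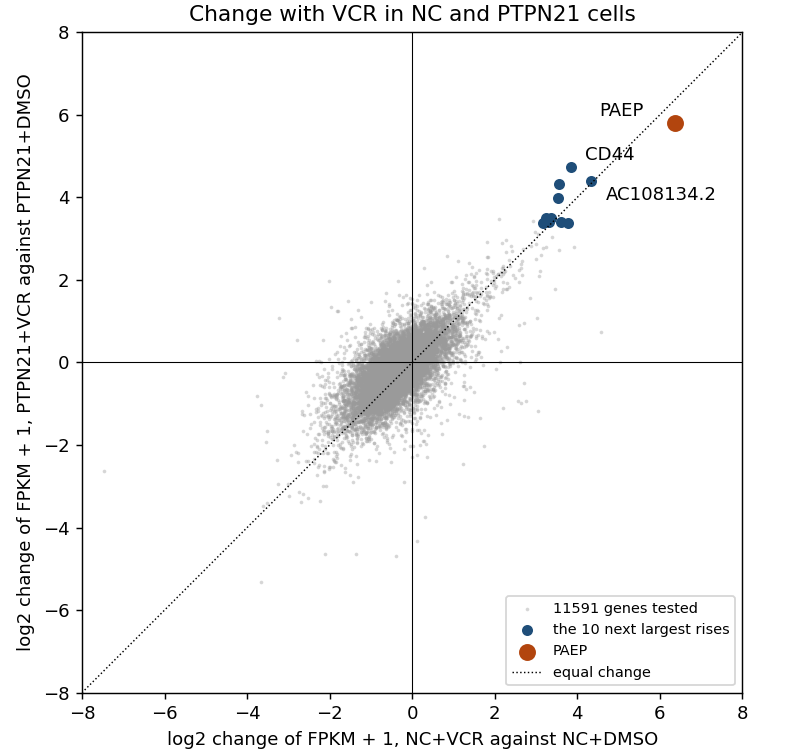
Change of log2(FPKM + 1) with VCR in NC cells (x axis) against PTPN21 cells (y axis) for the 11591 genes tested, with the line of equal change dotted. PAEP, at 6.36 and 5.81, stands apart at the upper right, and the next, AC108134.2, lies at 4.34 and 4.38.

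The genes that followed had varied roles. CD44, the hyaluronan receptor, was higher by 3.84 in NC and 4.73 in PTPN21 cells, from at most 0.913 FPKM without drug to at least 14.5 FPKM with it. PLAT, the tissue plasminogen activator, was higher by 3.56 and 4.32, and AIM2, a sensor of cytosolic DNA, by 3.54 and 3.995. CLU, the secreted chaperone clusterin, was higher by 3.78 and 3.38, CPA4, a secreted carboxypeptidase, by 3.35 and 3.49, and OPN3, an opsin, by 3.24 and 3.49. The noncoding RNAs CCR5AS (3.61 and 3.41) and VTRNA1-2 (3.32 and 3.39) and the Fc receptor-like gene FCRLA (3.18 and 3.37) completed the 10. These genes were picked for their rise, so the values are descriptions. CLU and CPA4 varied most between libraries: CLU was 67.3, 86.7 and 272 FPKM in the NC+VCR libraries, and CPA4 was 4.67, 6.10 and 26.01 FPKM.

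The PTPN21 construct was then compared with its control, a contrast that did not enter the choice of PAEP. Without drug, PAEP differed by 0.24 on the log2(FPKM + 1) scale (PTPN21+DMSO minus NC+DMSO, 95% interval -0.33 to 0.81, limma adjusted p = 0.599), with overlapping groups (exact permutation p = 0.8, two-sided). Across all genes tested, 6.34% were called in this comparison. With drug, PAEP differed by -0.31 (PTPN21+VCR minus NC+VCR, 95% interval -0.88 to 0.26, limma adjusted p = 0.604). The limma fit shares 1 estimate of the spread over all 4 groups. For PAEP the pooled SD of replicates was 0.12 in the VCR groups and 0.48 in the DMSO groups. Both intervals mix these spreads, and the one with drug does not describe the VCR libraries alone. With only the 2 VCR groups in the fit, the limma adjusted p was 0.245. The 2 VCR groups did not overlap, and the exact permutation test gave p = 0.1 (two-sided), the smallest that 3 against 3 libraries can give. Of all genes tested, 10.2% had PTPN21+VCR libraries that all lay below the NC+VCR libraries, and 1.82% were called in either direction.

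The drug response of PAEP was smaller in PTPN21 cells by 0.55 on the log2 scale, a difference that did not pass the test (95% interval -1.35 to 0.25, limma adjusted p = 0.508). Both responses entered the choice of PAEP, so this test is not independent of that choice. Across all genes, 0.129% were called for this difference. It depends on the low DMSO values: without NC+DMSO replicate 2, the library with 1.77 FPKM, it was -0.87, and without NC+DMSO replicate 3 it was -0.38, with adjusted p-values of 0.166 and 0.726.

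Some markers of other cell types moved with VCR beside PAEP. KRT18 was higher by 1.56 (limma adjusted p = 7.17e-05) in NC and 1.17 (adjusted p = 0.000552) in PTPN21 cells. KRT8 (1.40 and 1.66) and KRT19 (1.08 and 0.98) were called in both NC and PTPN21 cells as well, while EPCAM, at 0.41 in each, did not pass. Of all genes tested, 7.91% in NC and 9.22% in PTPN21 cells were called higher. The summed level of the 7 epithelial markers was 605 to 853 FPKM in the DMSO libraries and 1678 to 2218 FPKM in the VCR libraries, a sum carried by the keratins and EPCAM. CDH1 was lower, at 0.219 to 1.83 FPKM in NC+DMSO and 0 in NC+VCR, and at 0.101 to 0.337 FPKM in PTPN21+DMSO and 0.010 to 0.074 FPKM in PTPN21+VCR, and it was under the minimum for the test. Of the 15 erythroid genes, 14 had a lower mean with VCR in NC cells and 14 in PTPN21 cells, with a median change of -1.22 and -1.28. Of all genes tested, only 28.5% in NC and 39.3% in PTPN21 cells had a change above 0, so a lower mean was common. CD3D was higher by 0.64 in NC+VCR (adjusted p = 0.00655) and differed by -0.24 in PTPN21 cells (adjusted p = 0.248). TRBC1, the other T cell marker tested, differed by -0.28 in NC cells (limma adjusted p = 0.667). In PTPN21 cells it was called lower (-1.44, limma adjusted p = 0.0398), when 19.3% of all genes were. That call was lost in 7 of the 12 fits that left out 1 library. In bulk RNA, a larger share of cells with PAEP and more PAEP RNA per cell cannot be told apart, and the part of these lists in the change of PAEP was not tested.

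The other lipocalin genes were low or listed at 0. Of 19 measured, 9 were listed at 0 in all 12 libraries, 15 never reached 1 FPKM and 2 were tested. PTGDS, a lipocalin enzyme that makes prostaglandin D, was 4.803 to 5.71 FPKM in NC+DMSO and 0.503 to 0.967 FPKM in NC+VCR, and 8.36 to 11.03 FPKM in PTPN21+DMSO and 0.883 to 2.43 FPKM in PTPN21+VCR. It fell by 1.83 in NC (limma adjusted p = 0.000262) and by 2.17 in PTPN21 cells (adjusted p = 9.2e-05), when 28.3% and 19.3% of all genes were called lower. Its groups did not overlap in NC or in PTPN21 cells, which held for 33.9% of all genes in the lower direction in NC and for 33.3% in PTPN21 cells.

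APOD, apolipoprotein D, was the other lipocalin tested, at 0 to 0.410 FPKM in NC+DMSO and 0.507 to 1.41 FPKM in NC+VCR. Its change of 0.70 in NC cells passed narrowly (limma adjusted p = 0.0482, with 7.91% of all genes called higher), and it was 0.45 in PTPN21 cells (adjusted p = 0.215, with 9.22% of all genes called higher). Without PTPN21+VCR replicate 3 the gene fell under the minimum, and of the other 11 fits that left out 1 library the call was lost in 10 (adjusted p up to 0.151), all but that without NC+VCR replicate 2 (adjusted p = 0.0219). It was also lost in 4 of 9 other alternatives (up to 0.108). LCN2, the neutrophil lipocalin, reached at most 0.659 FPKM.

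None of the genes around PAEP on chromosome 9 reached its level with VCR. GENCODE release 29 has 18 other genes within 250 kb, of which 9 were listed at 0 in all 12 libraries and 14 stayed under 2 FPKM. The closest coding genes upstream, the lipocalins OBP2A (11786 bases away) and LCN1 (35223 bases away), were among those at 0, as was LCN9. Downstream, the noncoding LINC01502 was at 0 in 11 libraries, with at most 0.239 FPKM. PAEPP1, an unprocessed pseudogene of PAEP 21046 bases downstream, was at 0 in 11 libraries, with 0.522 FPKM in PTPN21+VCR replicate 3. Reads that fit both PAEP and this copy could be split by the counting, and how they were assigned is not given in the sources used here.

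**Figure D4:**
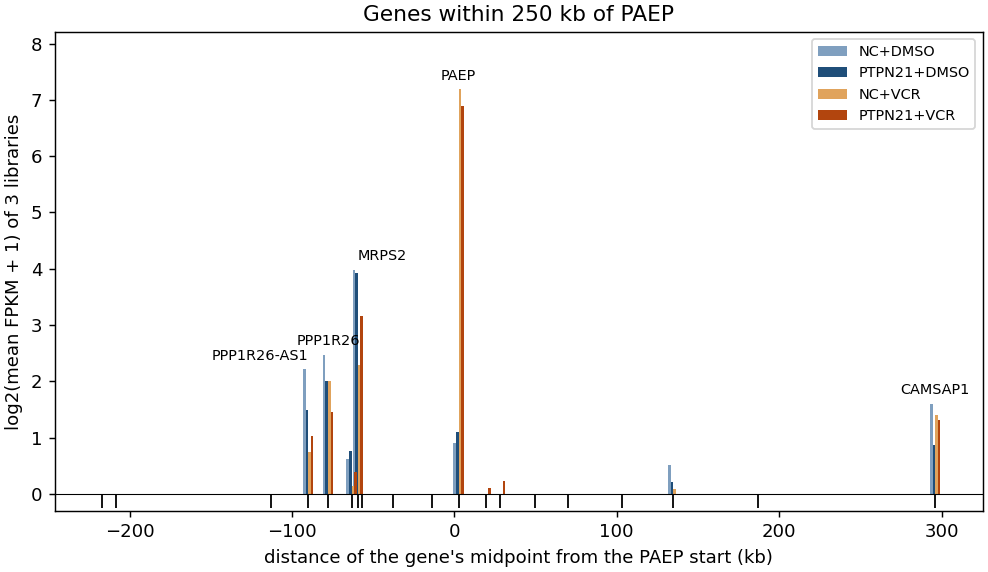
Mean FPKM (n = 3) as log2(mean FPKM + 1) in each group for PAEP and the 18 genes within 250 kb, at the distance of each gene's midpoint from the PAEP start in kb, with ticks for every gene. PAEP is the highest in both VCR groups, and the nearest genes on either side are at or near 0 in all groups.

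The 4 neighbours tested were MRPS2, PPP1R26, PPP1R26-AS1 and CAMSAP1, and limma called none higher with VCR, when 7.91% of all genes in NC and 9.22% in PTPN21 cells were called higher. Lower calls were 2 of 4 in NC and 1 of 4 in PTPN21 cells, beside 28.3% and 19.3% of all genes. MRPS2, a mitochondrial ribosomal protein gene 57082 bases upstream, was 12.3 to 16.9 FPKM in NC+DMSO and 3.02 to 5.04 FPKM in NC+VCR. It fell by 1.69 in NC (limma adjusted p = 0.000123) and by 0.74 in PTPN21 cells (adjusted p = 0.0192). The call in PTPN21 cells was lost without any 1 of PTPN21+DMSO replicates 2 and 3 and PTPN21+VCR replicates 2 and 3, with adjusted p up to 0.087, and with median ratio scaling, quantile normalization or no filter (up to 0.121). The antisense RNA PPP1R26-AS1 fell by 1.49 in NC cells (adjusted p = 0.000715), and its change was -0.47 in PTPN21 cells (adjusted p = 0.160). It overlaps PPP1R26 on the opposite strand, and whether the counting used strand is not given in the sources used here.

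The genes whose pattern was most like that of PAEP over the 12 libraries were found by Pearson's r of log2(FPKM + 1). The closest were TUBB2B (r = 0.996), CNN1 (r = 0.995), KLKP1 (r = 0.994), CCR5AS (r = 0.993) and AC005342.1 (r = 0.992), followed by CALB1, AC108134.2, AC010624.5, GBP2 and TUBB2A (r = 0.988 to 0.991). Of 11590 genes, 107 reached r of at least 0.95 and 164 had r of at most -0.95, and the median was -0.38. All 12 points share 1 large step between DMSO and VCR, so these r describe that step and a low spread within groups.

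TUBB2B and TUBB2A encode beta-tubulins, the protein that VCR binds. TUBB2B was 7.31, 8.97 and 9.78 FPKM in NC+DMSO and 42.2, 43.9 and 46.2 FPKM in NC+VCR, and its change was 2.23 in NC and 2.20 in PTPN21 cells. Without drug it was thus already well above PAEP, and with drug it was lower. CNN1, calponin of smooth muscle, was 6.90 to 12.1 FPKM in NC+DMSO and 82.9 to 100.9 FPKM in NC+VCR, with changes of 3.12 and 2.61. KLKP1, a kallikrein pseudogene, was at most 0.2996 FPKM without drug and 6.49 to 8.95 FPKM with it. Within the 6 VCR libraries alone the likeness was not kept by all of them, as r was -0.43 for TUBB2B, -0.48 for TUBB2A and 0.76 for CNN1.

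**Figure D5:**
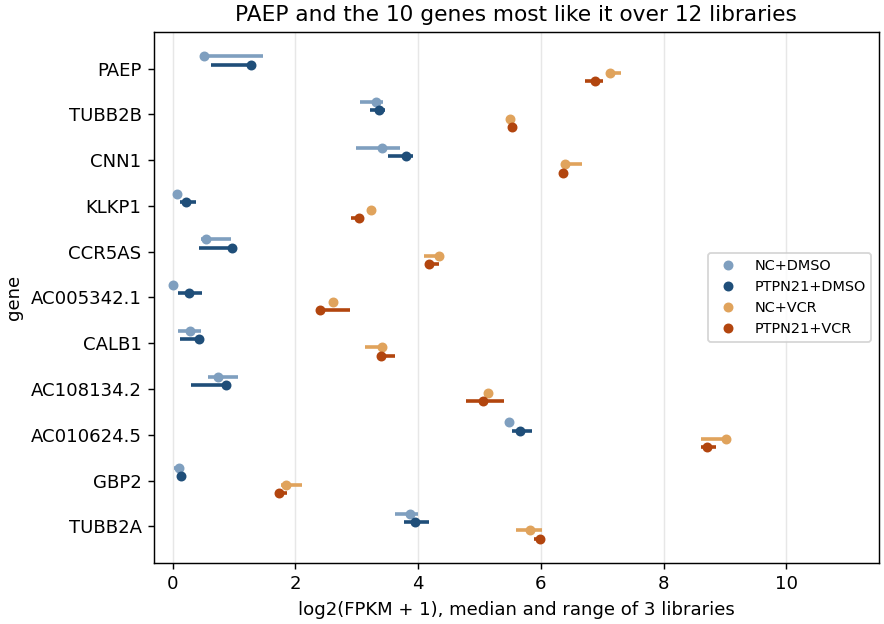
PAEP and the 10 genes with the highest r to it over 12 libraries, on the log2(FPKM + 1) scale, with points at the median and lines over the range of the 3 libraries of each group. In each gene both VCR groups lie above both DMSO groups, and PAEP spans the widest step.

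Over the 6 VCR libraries alone, the genes most like PAEP were OSBPL9 (r = 0.984), SNX19 (r = 0.984), PSD4 (r = 0.983), AC036214.2 (r = 0.980) and NOL10 (r = 0.974). None of them followed PAEP across the drug step, with r over 12 libraries of 0.39, -0.78, -0.68, -0.60 and -0.96. OSBPL9, an oxysterol-binding protein, was 126.7 to 143 FPKM in NC+VCR and 90.4 to 118 FPKM in PTPN21+VCR. These r rest on 6 libraries in which PAEP varied between 105 and 156 FPKM.

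Regulators reported for PAEP were compared next. Of 13 listed, 7 were tested. The nuclear receptors PGR, ESR1 and ESR2, for progesterone and estrogen, stayed at or below 0.348 FPKM in every library, as did RXFP1, the relaxin receptor, and SOX10, a melanocyte and neural crest factor, was listed at 0 in all 12. The glucocorticoid receptor NR3C1 was 0.693 to 2.32 FPKM in NC+DMSO and 0.693 to 2.95 FPKM in NC+VCR. In NC cells limma called 0 of the 7 with VCR, and 0 at an unadjusted p under 0.05, when 36.2% of all genes were called. In PTPN21 cells 2 were called, both higher, when 28.5% of all genes were called and 9.22% were called higher.

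Those 2 encode histone deacetylases, whose inhibition is known to raise PAEP in endometrial cells. HDAC1 was 60.4 to 69.2 FPKM in PTPN21+DMSO and 80.1 to 104.7 FPKM in PTPN21+VCR, a change of 0.44 (limma adjusted p = 0.0289). HDAC3 was 21.4 to 34.5 FPKM and 54.0 to 56.9 FPKM, a change of 1.10 (limma adjusted p = 0.0283). In NC cells HDAC1 changed by 0.22 (limma adjusted p = 0.229) and HDAC3 by 0.64 (adjusted p = 0.153). HDAC2, the other deacetylase listed, changed by -0.37 in NC (limma adjusted p = 0.166) and by -0.05 in PTPN21 cells (adjusted p = 0.874). The call of HDAC1 was lost without any 1 of the 3 PTPN21+DMSO libraries or PTPN21+VCR replicates 1 and 2 (adjusted p up to 0.122), and with no filter or no intensity trend (up to 0.232), and that of HDAC3 without any 1 of PTPN21+DMSO replicates 2 and 3 or the 3 PTPN21+VCR libraries (up to 0.0919) and with no filter (0.0934). SP1 and SP3, zinc finger factors that bind GC-rich promoters, and MITF, the melanocyte regulator, were tested and not called in NC or PTPN21 cells.

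Genes that accompany PAEP in the secretory endometrium were not detectable at this depth or were low. Of 13 listed, 0 reached a mean of 1 FPKM, 6 were at 0 in all 12 libraries, and the summed level of the list was 0.377 to 2.03 FPKM. Most of that sum without drug was MUC1, a mucin, with a mean of 1.11 FPKM in NC+DMSO, 0.648 FPKM in PTPN21+DMSO, 0.056 FPKM in NC+VCR and 0.101 FPKM in PTPN21+VCR. None of the 13 was tested.

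The route of a secreted glycoprotein was also examined, from entry into the endoplasmic reticulum to the glycans. All 10 genes of the translocon, the signal recognition particle and the signal peptidase were tested. In NC cells 1 was called higher, the translocon subunit SEC61B (0.31, limma adjusted p = 0.0432), and 3 lower, the pore subunit SEC61A1 (-1.20, adjusted p = 0.00933) and the signal peptidase subunits SPCS1 (-0.81, adjusted p = 0.0188) and SPCS3 (-0.52, adjusted p = 0.0222). In PTPN21 cells SEC61B (0.43, adjusted p = 0.0114) and SRP14 (0.37, adjusted p = 0.0127) were called higher and SEC11C (-0.99, adjusted p = 0.00106) lower. These are 4 of 10 called in NC cells, beside 36.2% of all genes, and 3 of 10 in PTPN21 cells, beside 28.5%, so the shares are near those of all genes. The median change of the 10 was -0.26 in NC and 0.07 in PTPN21 cells, beside -0.36 and -0.17 for all genes.

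Of these calls, that of SEC11C was kept without each of the 12 libraries, and so was that of SEC61A1 in NC cells, which was lost with median ratio scaling or quantile normalization (adjusted p up to 0.0575). SEC61B in NC cells was lost without 7 of the 12 libraries (NC+DMSO replicates 1 and 2, the 3 NC+VCR libraries, PTPN21+DMSO replicate 3 and PTPN21+VCR replicate 1, up to 0.122) and in 5 of 10 other alternatives (up to 0.369). In PTPN21 cells it was lost without PTPN21+DMSO replicate 2 or PTPN21+VCR replicate 3 (up to 0.0506) and with no filter (0.132). SRP14 was lost without PTPN21+DMSO replicate 2 or 3 (up to 0.0547) and with quantile normalization or without the intensity trend (up to 0.304). SPCS1 was lost without NC+DMSO replicate 1 or NC+VCR replicate 2 or 3 (up to 0.0702), and SPCS3 without NC+DMSO replicate 1 or 3 or NC+VCR replicate 1 or 2 (up to 0.075). SPCS1 and SPCS3 were each lost in 4 of 10 other alternatives too, median ratio scaling and quantile normalization among them (up to 0.203 and 0.485).

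Of 16 enzymes that build and cap N-glycans, 9 were tested. In NC cells 2 were called, both lower with VCR: the galactosyltransferase B4GALT1 (-0.70, limma adjusted p = 0.0289) and MGAT1 (-0.79, adjusted p = 0.0303), which starts complex glycans. Both calls were lost with median ratio scaling, quantile normalization, no filter or only the 2 groups compared (adjusted p up to 0.323), B4GALT1 also without NC+DMSO replicate 1 or 3 or NC+VCR replicate 2, and MGAT1 without NC+DMSO replicate 2 or 3 or NC+VCR replicate 1 or 2 (up to 0.107). In NC cells 28.3% of all genes were called lower. In PTPN21 cells limma called 0 of the 9, and 1 at an unadjusted p under 0.05, when 28.5% of all genes were called. FUT7, FUT9, B4GALNT3 and ST3GAL6, which add fucose, N-acetylgalactosamine or sialic acid at the ends of glycans, were listed at 0 in all 12 libraries. Others of these kinds were present, FUT4 only at a low level. Over all libraries ST6GAL1 averaged 9.09 FPKM, ST3GAL4 6.15 FPKM, B4GALNT4 1.15 FPKM and FUT4 0.703 FPKM. FUT4 was 0.730 to 1.35 FPKM in the DMSO libraries and 0.154 to 0.558 FPKM in the VCR libraries.

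PTPRC, which encodes CD45, was 16.8, 23.7 and 27.2 FPKM in NC+DMSO and 29.7, 31.6 and 32.9 FPKM in NC+VCR. In PTPN21+DMSO it was 8.07, 13.4 and 14.2 FPKM and in PTPN21+VCR 23.8, 31.4 and 33.1 FPKM. It was higher with VCR by 1.26 in PTPN21 cells (limma adjusted p = 0.00161), a call kept without each of the 12 libraries, and by 0.48 in NC cells (adjusted p = 0.111). The difference of the 2 responses was 0.78 and did not pass (adjusted p = 0.310). Without drug PTPRC was lower in PTPN21 cells (-0.88, adjusted p = 0.0419, with 3.69% of all genes called lower), a call that was lost in 10 of the 12 fits that left out 1 library, NC+DMSO replicate 2 and NC+VCR replicate 2 being the exceptions, with adjusted p up to 0.163, and in 6 of 10 other alternatives (up to 0.225).

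The 250 bases before the PAEP start were searched on both strands for 8 motifs, as a description. The AP-1 site (TGANTCA, with N any base) was found once, 95 to 89 bases before the start, and 6.57% of 35116 promoters of the same length hold it. The SP1 box (GGGCGG) was found once, 58 to 53 bases before the start, and 42.6% of promoters hold it. The CRE (TGACGTCA), GATA sites (AGATAA and TGATAA), the TATA box (TATAAA), a hormone response element half-site (TGTTCT) and the canonical E-box (CACGTG) were not in this window. GC content was 67.2%, against a median of 58.0% over all promoters.

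Among the 18 other genes named for their rise or likeness, the promoters of 9 were searched. The rest had no promoter in the sequences used or lay on a chromosome that this search left out. The shares over all promoters were taken without that exclusion. The AP-1 site was in the promoters of AIM2 (once) and CPA4 (2 times). The SP1 box was in 5 of the 9. The AP-1 sites are shown with up to 10 bases on either side, as read on the strand of each gene, with the site in capitals. In GRCh38.p14 they lie at chr9:135561651-135561677 (plus strand) for PAEP, chr1:159076905-159076931 (minus strand) for AIM2, and chr7:130293103-130293129 and chr7:130293136-130293160 (plus strand) for CPA4.
PAEP: gggccaaggaTGAGTCAcaggttcgag
AIM2: ctatgtggcaTGACTCAgatacaagtt
CPA4 first site: tttgaggactTGAGTCActctcagact
CPA4 next site: aaatacagctTGACTCAgccactgt
PAEP and the first CPA4 site share the 7 letters TGAGTCA, and AIM2 and the next CPA4 site share TGACTCA, which is the same site read on the other strand. No binding was measured here, and a match in letters is not evidence of one.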

How the data were processed

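RNA of 12 libraries, 3 in each of 4 groups taken from the sample labels, had been sequenced and processed by an external company. The authors deposited 1 table of FPKM. The submitters' processing notes name fastp, Bowtie2 and the mouse build mm10, whereas the table lists human Ensembl identifiers. The counting program and the annotation are not given in the sources used here. GENCODE release 29 gave positions, with an entry for 58453 of 60671 genes (96.3%).

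FPKM as deposited were turned into log2(FPKM + 1). The 11591 genes averaging at least 1 FPKM were fitted with limma 3.58.1 in R 4.3.3, using an intensity trend and one mean per group, with Benjamini-Hochberg adjustment over these genes and a threshold of 0.05. Single values were compared by an exact permutation test of the libraries. To estimate depth, 8706 single-exon genes over 500 bases long were used. Between 36.2% and 49.1% of low values lay near a whole step, against 20% by chance. The range of steps searched was narrowed after a first search, and the method alone does not tell a step of 1 fragment from one of 2. The script was checked on simulated data with the spread of these libraries. It called 89% of log2 changes of 2 and 44% of log2 changes of 1, and 1.48% of its calls were false. A gene that was not called may therefore still have changed.

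PAEP, the gene lists and the tests were chosen with earlier results of these data known, and the erythroid list and the motifs after the values were seen. The genes named are PAEP, the members of the lists, the genes within 250 kb, the 10 largest rises by the smaller of the 2 VCR changes, the genes most like PAEP (10 over 12 libraries, 5 over the 6 VCR libraries) and PTPN21. AC010761.1 was named after its value was seen. Some listed genes are counted with their lists but not reported here by name. Promoters and motifs came from RefSeq sequences (GRCh38.p14). Alternatives changed the pseudocount (0.1), the filter (none, or a mean of 5 FPKM), the scaling (TPM, median ratio or quantile), the intensity trend, the moderation (robust), the groups in the fit (only those compared) and the replicate number (as a block), and left out each library. Python 3.11.15, pandas 2.3.3, numpy 2.4.6 and matplotlib 3.10.9 were used.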

Additional observations from a re-analysis of the deposited data

How the results depend on the processing

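PAEP kept rank 1 by the smaller of its 2 VCR changes under 6 alternatives and without each of the 12 libraries. Its distance to the next genes was not compared across these alternatives. With a pseudocount of 0.1 its change was 7.50 in NC and 6.66 in PTPN21 cells, since the low DMSO values then weigh more. Without single libraries it was 6.19 to 6.68 in NC and 5.58 to 5.93 in PTPN21 cells. The construct differences ranged from 0.077 to 0.56 without drug (adjusted p 0.104 to 0.925) and from -0.38 to -0.23 with it (0.437 to 0.788), and the difference of responses from -0.87 to -0.38 (0.166 to 0.726), so no test of PAEP passed under any setting tried. With only the 2 VCR groups in the fit, the adjusted p was 0.245. With no filter, limma warned that its variance moderation was unreliable, as most genes were at 0.

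Replicate numbers did not pair the libraries: over 18 same-numbered pairs, deviations from the group means correlated at -0.145 to 0.0583. With a replicate block the changes of PAEP stayed at 6.36, 5.81, 0.24, -0.31 and -0.55, with adjusted p of 0.61, 0.62 and 0.541 for the last 3, and 242 genes instead of 735 were called between constructs without drug, 74 instead of 211 with drug and 8 instead of 15 for the difference of responses.

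The share of calls that were higher with VCR was 21.9% in NC and 32.3% in PTPN21 cells, 56.5% and 51.2% with median ratio scaling and 52.5% and 51.6% with quantile normalization. With only the 2 groups compared, 2674 instead of 4192 genes were called in NC and 4157 instead of 3308 in PTPN21 cells, and with no filter 2064 in PTPN21 cells. Calls between constructs ranged from 40 to 1347 without drug and from 43 to 357 with it, and for the difference of responses from 7 to 30. The calls of the main fit for neighbours and listed genes, the erythroid list aside, were followed through the alternatives. Of 609 such values, 490 still passed the threshold, 119 no longer passed it and 0 turned direction. Genes not called in the main fit were left out of this count.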
